A study of Mus musculus with 72 samples.

Results

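The liver transcriptome of 24 adult male mice was compared by the nutrition of their dams, with the offspring's own diet held as a covariate. The comparison used every liver library of the study, 12 from offspring of calorie-restricted dams (CR20) and 12 from offspring of freely fed dams (FED), out of 72 libraries that also cover epididymal white adipose tissue (eWAT) and pituitary of the same mice. All animals were sighted FVB mice (FVB.129P2-Pde6b+ Tyrc-ch/AntJ) and the groups differ in no allele. CR20 dams received 20% less food from embryonic day 15 until their pups were weaned at postnatal day 21, whereas FED dams ate freely. From 8 weeks of age the offspring ate either the CTRL diet (10% fat) or the HFD (45% fat). The methods give 10 weeks on these diets for the sequenced mice, while the labels also mention 16 weeks. This made 4 groups of 6 mice, FED-CTRL, FED-HFD, CR20-CTRL and CR20-HFD. The treated unit was the dam, and the pups of a dam could enter either diet, but the litter of each mouse is not given in the labels. The p-values over mice therefore measure only the spread between these 24 animals, and they are too small where mice share a dam.

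The liver takes up, stores and exports glucose and lipid, makes most plasma proteins and bile acids, and responds to growth hormone, thyroid hormone and glucocorticoids. Its hepatocytes also answer cytokines. Interferons signal through STAT and IRF transcription factors to switch on guanylate-binding proteins, immunity-related GTPases and IFIT proteins, and interleukin 6 drives the acute phase proteins. Nutrient supply in late gestation and lactation is widely studied for lasting effects on these functions in the adult offspring, and the comparison asks whether the adult male liver carried such a mark in its messenger RNA.

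Total counts on genes were 9842813 to 19928212 per liver library, and 13787 genes passed the filter on low counts. The 10 hepatocyte markers tested, including Alb, Apoa1 and Ttr, summed to between 83620 and 129594 CPM (counts scaled to a common library total) in every library, so the label of the tissue held. Kupffer cell markers summed to 584 to 778 CPM in FED-CTRL, 623 to 975 in FED-HFD, 458 to 1331 in CR20-CTRL and 582 to 983 in CR20-HFD. None of the 12 Kupffer cell, 10 endothelial, 11 stellate cell, 7 cholangiocyte or 10 lymphocyte markers tested had an unadjusted p-value under 0.05 for maternal nutrition. Of 4 erythroid markers tested 1 had, the haem synthesis gene Alas2, at a log2FC of -0.29 (SE 0.11), and the 8 erythroid markers summed to 68.3 to 691 CPM in CR20-CTRL (highest in mouse 4) and 97.3 to 255 in the other groups. The 9 pancreatic acinar markers summed to 44.9 to 242 CPM, highest in CR20-CTRL mouse 5, and 4 of them had no count in any library. The part of these in the results was not tested. In whole tissue, fewer cells of a type and less RNA per cell cannot be told apart.

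A few libraries stood apart whatever their group. The median Spearman correlation of a library with the other 23 was 0.931 and 0.905 for CR20-CTRL mice 4 and 5, was 0.954 to 0.961 for FED-CTRL mice 14 and 41, FED-HFD mouse 11 and CR20-HFD mouse 32, and was at least 0.968 for the other 18. The same 2 CR20-CTRL mice had the highest shares of counts on ribosomal protein genes, 2.36% and 2.93% against a median of 1.36% over all libraries, and the first principal component held 42.6% of the variance. The count of called genes and the counts of several lists are given below also without these libraries, a choice made after seeing the data.

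**Figure D1:**
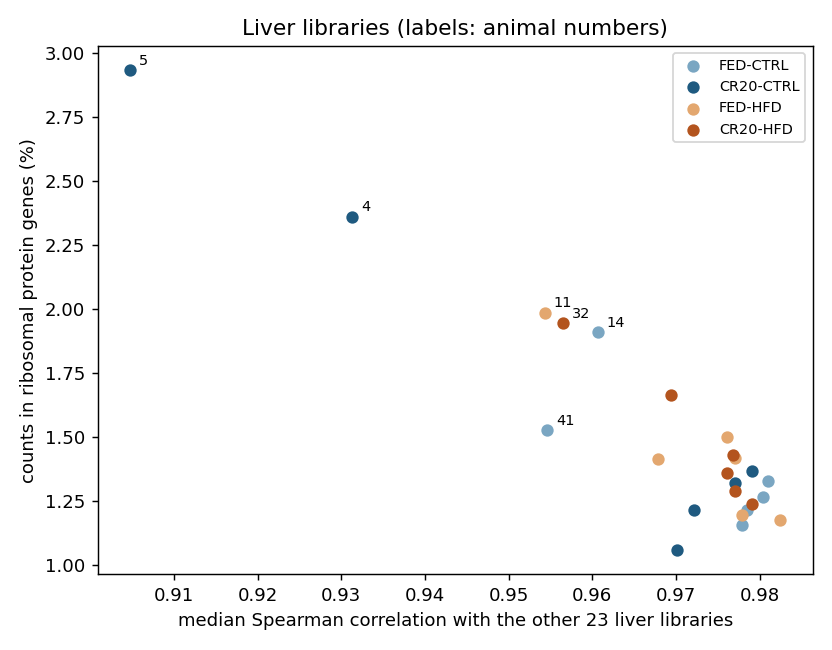
Share of counts on ribosomal protein genes (vertical axis, %) against the median Spearman correlation with the other 23 liver libraries (horizontal axis, no unit), 1 point per mouse, coloured by group and labelled by animal number for the 6 libraries of lowest correlation. CR20-CTRL mice 4 and 5 lie apart at correlations of 0.931 and 0.905 with shares of 2.36% and 2.93%.

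No gene passed the test for maternal nutrition across both diets. With edgeR's quasi-likelihood test, 0 of 13787 genes had an adjusted p-value under 0.05, and the smallest was 0.471. The thresholds of the study's methods (adjusted p-value under 0.055 and an absolute log2FC of at least 0.58) also gave 0 genes. Here and below, the log2FC is CR20 minus FED on the log2 scale. At an unadjusted p-value under 0.05 there were 549 genes (3.98%), of which 268 (1.94%) were higher and 281 (2.04%) lower in CR20. No gene had its 12 CR20 values entirely above or below its 12 FED values. Within the CTRL diet, 7 genes (0.0508%) had all CR20 mice above all FED mice and 4 (0.029%) had them all below. Within HFD the same counts were 9 (0.0653%) and 7 (0.0508%), with Adgrf1, Wif1 and Mettl25b among the higher and Prnp and Hp among the lower, all named after their values were seen.

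The intervals show what size of difference these 24 livers could still hold. The 95% interval of the log2FC lay within -1 and 1 for 12821 genes (93.0%) and within -0.58 and 0.58 for 9257 genes (67.1%), with a median SE of 0.16. The median log2FC over all genes was 0.03, and 8094 genes (58.7%) had a value above 0. For these genes the median depended on the fit. It was -0.0037 without CR20-CTRL mice 4 and 5 and -0.0072 without the 6 libraries of low correlation. With limma voom and quality weights it was 0.00035, and with DESeq2 0.032. The share of 58.7% set beside the lists below is that of the edgeR fit of all 24 livers. An absolute log2FC of 1 or more was seen for 46 genes. In the same fit the offspring's diet did change the liver, with 237 genes (1.72%) at an adjusted p-value under 0.05. The test of whether the maternal difference itself differed between the diets gave 0 genes at an adjusted p-value under 0.05 (smallest 0.999) and 242 (1.76%) at an unadjusted one. A p-value that misses the threshold does not show that the diets were alike, so the values on each diet are given where they differ.

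A few genes passed under other treatments of the same counts. With limma voom and quality weights, the test named in the study's methods, 3 genes had an adjusted p-value under 0.05 (0.0218%), namely Adgrf1, Styx and Aldh1a1. DESeq2 called Lcn2 alone. The edgeR test without the 6 libraries of low correlation called Adgrf1 alone (0.00705%). Down-weighting or leaving out the libraries that stood apart also moved the unadjusted counts, to 2425 genes (17.6%) with quality weights, 1908 (13.6%) without CR20-CTRL mice 4 and 5 and 2160 (15.2%) without all 6.

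Adgrf1 encodes an adhesion G protein-coupled receptor. Its level in FED-CTRL was 0.54, 0.89 and 1.95 log2 CPM for the lowest, median and highest mouse, and in FED-HFD it was -1.01, -0.29 and 0.27. The CR20 groups lay at 0.88, 1.59 and 2.26 in CTRL and at 0.95, 1.32 and 1.65 in HFD. On HFD every CR20 mouse lay above every FED mouse, whereas on CTRL the groups overlapped. These levels rest on 4 to 83 reads per library. The log2FC over both diets was 1.10 (SE 0.24, 95% interval 0.61 to 1.59), and the edgeR adjusted p was 0.471 (exact permutation p = 0.000171, not adjusted). It was 0.53 on CTRL and 1.81 on HFD, and the edgeR test of that difference gave an unadjusted p-value of 0.00514 and an adjusted one of 0.999. With voom and quality weights the log2FC was 1.17 (adjusted p = 0.0228), and without the 6 libraries it was 1.36 by edgeR (adjusted p = 0.0152). Over all 38 other settings its adjusted p-value ran from 0.0152 to 1.

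Lcn2, which encodes lipocalin 2, a secreted acute phase protein that binds bacterial siderophores, had the smallest p-value of all genes. Its lowest, median and highest levels were 3.35, 4.31 and 5.81 log2 CPM in FED-CTRL and 1.80, 2.56 and 3.51 in CR20-CTRL. On HFD they were 3.17, 4.80 and 6.31 in FED and 3.39, 4.16 and 4.60 in CR20. The CTRL groups nearly separated, and on HFD the CR20 mice lay inside the range of the FED mice. The log2FC was -1.46 (SE 0.31, 95% interval -2.09 to -0.83) and the edgeR adjusted p was 0.471 (exact permutation p = 0.00104). DESeq2 gave -1.47 (adjusted p = 0.0252), and over all settings the adjusted p-value ran from 0.0252 to 1.

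Styx, a catalytically inactive member of the dual-specificity phosphatase family, had the most spread in FED-HFD, from 2.16 to 3.42 log2 CPM. Its medians were 2.91 and 2.81 log2 CPM in FED-CTRL and FED-HFD against 3.43 and 3.27 in CR20-CTRL and CR20-HFD, and the lowest CR20 mouse (3.02) lay above both FED medians. The log2FC was 0.52 (SE 0.13, edgeR adjusted p = 0.927), and 0.62 with voom and quality weights (adjusted p = 0.0265). Aldh1a1, a retinaldehyde dehydrogenase, had medians of 10.73 and 11.27 log2 CPM in the FED groups on CTRL and HFD against 10.31 and 10.73 in the CR20 groups. Its log2FC was -0.35 (SE 0.11, edgeR adjusted p = 0.999), and -0.46 with voom and quality weights (adjusted p = 0.0371). Over all settings the adjusted p-values ran from 0.0265 to 1 for Styx and from 0.0371 to 1 for Aldh1a1.

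**Figure D2:**
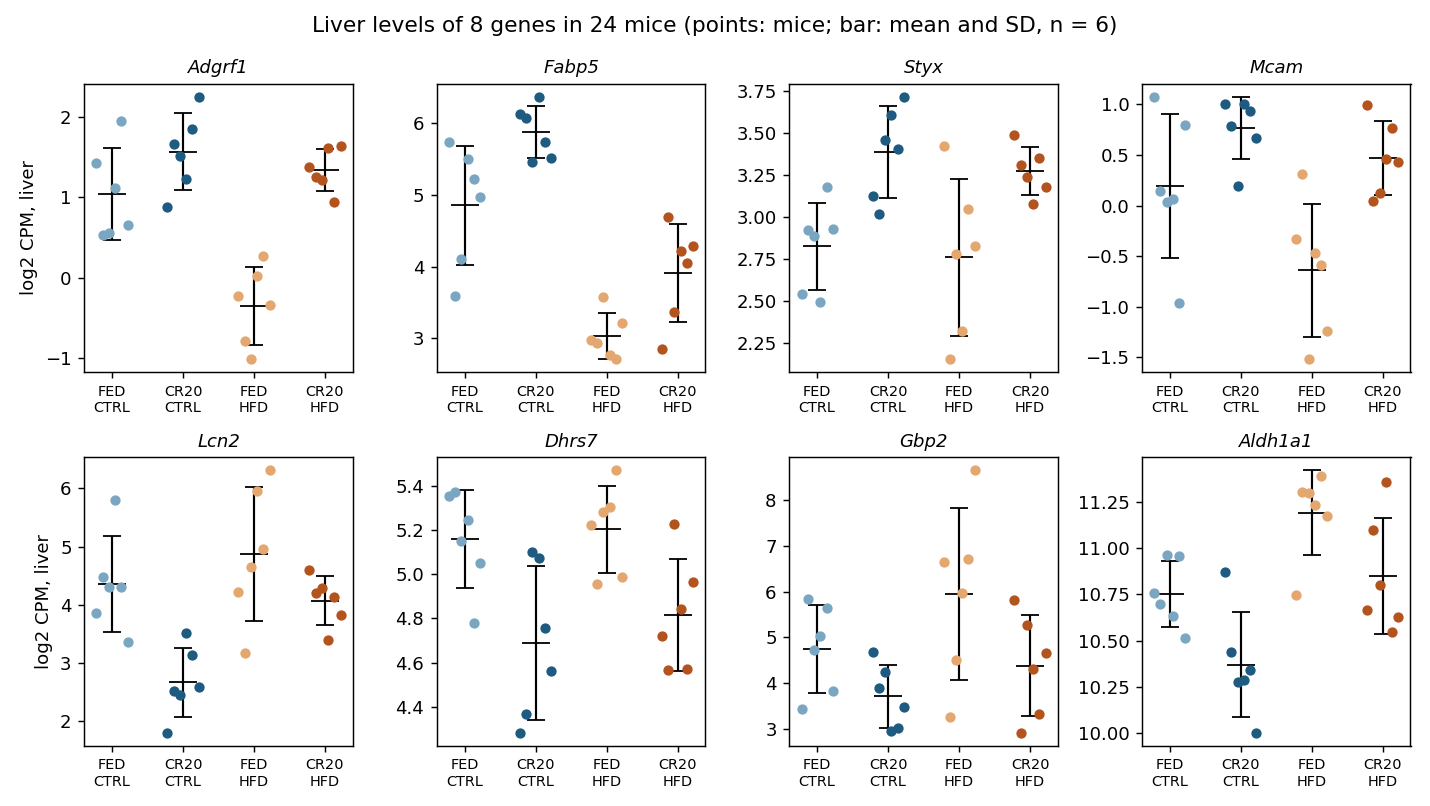
Liver levels (vertical axis, log2 CPM) of Adgrf1, Fabp5, Styx, Mcam, Lcn2, Dhrs7, Gbp2 and Aldh1a1 in the 4 groups, with 1 point per mouse and a bar for the mean and SD of 6 mice. For Adgrf1 all CR20-HFD mice (0.95 to 1.65) lie above all FED-HFD mice (-1.01 to 0.27), while the CR20 and FED mice of the other 7 genes overlap on both diets.

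Of the 12 leading lower genes, 5 respond to interferon, namely Gbp2, Gbp3, Gbp10, Ifit3 and Ifit3b. Of a list of 29 interferon-response genes, all tested and holding these apart from Gbp10, 28 had a log2FC below 0, and 17 had an unadjusted p-value under 0.05, all of them lower in CR20, where 2.04% of all genes were. The list was chosen with earlier results of these data known and holds genes picked by p-value in this fit. All genes are therefore not a like background for it. The median log2FC of the list was -0.70, against 0.03 over all genes, and was -0.41 on CTRL and -0.90 on HFD. The interval of 11 of the 29 lay within -1 and 1. No member passed adjustment, and none had an unadjusted p-value under 0.05 for a difference between the diets.

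The promoters of Gbp3, Gbp2 and Ifit3 are shown because these genes were among the 12 leading lower genes and because interferon signals through short elements upstream of such genes. Each is a RefSeq window of 300 bases, from 250 before to 50 after the annotated start, on the plus strand of GRCm38.p6, at chr3:142559794-142560093, chr3:142620413-142620712 and chr19:34583279-34583578. Capitals mark matches to the interferon-stimulated response element, searched on both strands as GAAA, any 2 bases and GAAA again.
Gbp3: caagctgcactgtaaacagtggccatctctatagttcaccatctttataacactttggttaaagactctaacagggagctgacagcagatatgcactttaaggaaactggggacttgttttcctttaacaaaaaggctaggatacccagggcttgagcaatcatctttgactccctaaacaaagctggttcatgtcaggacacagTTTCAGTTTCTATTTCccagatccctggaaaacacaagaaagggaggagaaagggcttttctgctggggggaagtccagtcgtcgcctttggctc
Gbp2: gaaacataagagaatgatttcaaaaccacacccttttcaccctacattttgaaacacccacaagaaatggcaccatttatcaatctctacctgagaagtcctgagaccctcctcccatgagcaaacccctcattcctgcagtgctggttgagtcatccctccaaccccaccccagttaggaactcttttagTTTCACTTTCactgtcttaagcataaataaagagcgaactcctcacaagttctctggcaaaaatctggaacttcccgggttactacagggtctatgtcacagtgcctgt
Ifit3: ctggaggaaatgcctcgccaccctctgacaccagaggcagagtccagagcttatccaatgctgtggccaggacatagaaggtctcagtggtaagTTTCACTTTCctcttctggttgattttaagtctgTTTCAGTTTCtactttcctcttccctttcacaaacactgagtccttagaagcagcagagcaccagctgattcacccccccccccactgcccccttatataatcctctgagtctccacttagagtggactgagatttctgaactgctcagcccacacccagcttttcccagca
RefSeq gives Gbp3 a further window, which holds no match and is not printed. The matches began at -45 and -39 from the start of Gbp3, where they overlap, at -59 for Gbp2 and at -156 and -122 for Ifit3. Of 29 list members 25 were matched to a RefSeq window, and 13 of these (52.0%) held the element, against 1079 of 27025 genes (3.99%). The gamma-activated site, searched as TTCNNNGAA on both strands, was held by 6 of the 25 (24.0%), against 9.55% of genes, and by none of the 3 windows printed. A match is a description of the letters in the window and not of bound factors. The list was made of interferon-response genes, so a high share with the element was to be foreseen. That share does not depend on the CR20 and FED values and says nothing about their difference.

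The guanylate-binding proteins, GTPases that act against intracellular pathogens, include Gbp2, whose log2FC was the lowest of the list. Gbp2 lay at 3.45, 4.88 and 5.84 log2 CPM (lowest, median and highest) in FED-CTRL and at 3.26, 6.31 and 8.64 in FED-HFD. In CR20-CTRL it lay at 2.96, 3.68 and 4.68, and in CR20-HFD at 2.92, 4.48 and 5.82. The medians of the CR20 groups were below those of the FED groups on the same diet, and the ranges overlapped on both diets. The log2FC was -1.66 (SE 0.46, 95% interval -2.61 to -0.72), and the edgeR adjusted p was 0.999 (exact permutation p = 0.0152).

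Gbp3, a neighbour of Gbp2 on chromosome 3, had medians of 5.30 and 6.48 log2 CPM in FED-CTRL and FED-HFD against 3.88 and 4.95 in the CR20 groups. Its log2FC was -1.32 (SE 0.37, exact permutation p = 0.013). The medians of Gbp10 were 5.39 and 6.17 in the FED groups against 3.23 and 4.74 in the CR20 groups, and its log2FC was -1.67 (SE 0.47, exact permutation p = 0.0235). Gbp10 shares 63.2% of its windows of 50 bases with Gbp6, so reads of both may have been split, whereas Gbp3 shares none with Gbp2. Gbp7, named after its value was seen, had a log2FC of -0.97.

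Of the IFIT proteins, which bind viral RNA, Ifit3 had medians of 3.73 and 4.10 log2 CPM in FED-CTRL and FED-HFD against 3.11 and 3.12 in the CR20 groups. Its log2FC was -0.86 (SE 0.25), and that of its near copy Ifit3b, which shares 47.8% of its windows with it, was -1.10 (SE 0.31). The further values are for genes chosen after they were seen. The log2FC was -0.91 (SE 0.27) for Ifit1, -1.00 (SE 0.31) for the immunity-related GTPase Irgm1, -1.05 (SE 0.36) for Igtp and -1.25 (SE 0.40) for the chemokine Cxcl10. For the signalling components it was -0.58 (SE 0.21) for the transcription factor Irf1, -0.51 (SE 0.21) for Irf7, -0.09 (SE 0.12) for Irf9 and 0.03 (SE 0.15) for Stat2, the only member above 0. Socs1, an inhibitor of this signalling counted here in the growth hormone list, had a log2FC of -1.67 (SE 0.59), which became -0.61 without FED-HFD mouse 40.

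**Figure D3:**
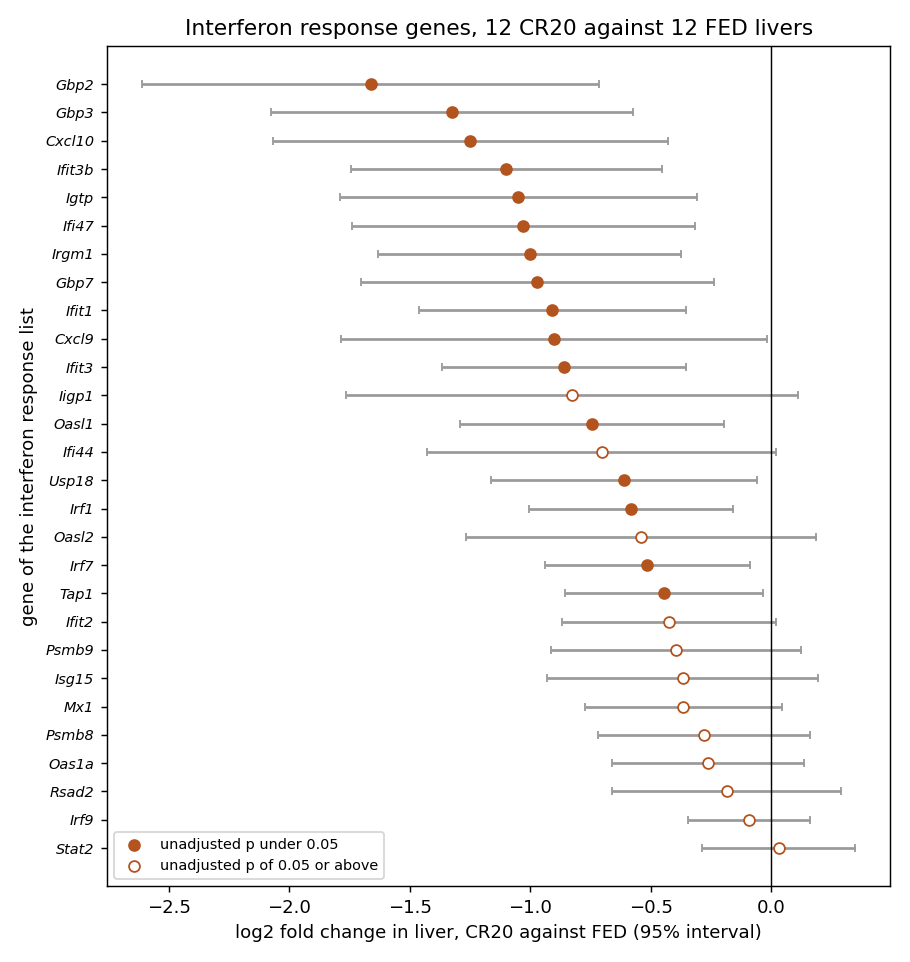
Log2FC of CR20 minus FED in liver (horizontal axis, log2 scale) with 95% intervals for 28 interferon-response genes, where filled points have an unadjusted p-value under 0.05. Of the 28 points 27 lie below 0, from -1.66 for Gbp2 to -0.09 for Irf9, and Stat2 lies at 0.03.

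The level of the interferon list varied widely between mice of a group, and leaving out single mice moved its values. The mean level of the 29 genes was 3.73, 4.68 and 5.12 log2 CPM (lowest, median and highest) in FED-CTRL and 3.56, 5.16 and 6.37 in FED-HFD. It was 3.69, 4.07 and 4.47 in CR20-CTRL and 3.65, 4.23 and 5.03 in CR20-HFD. The lowest mice of the 4 groups thus lay between 3.56 and 3.73, whereas the highest lay between 4.47 and 6.37. FED-HFD mouse 40 was the highest of all 24. Without it, 12 of the 29 genes had an unadjusted p-value under 0.05 (1.95% of all genes were lower at that threshold) and the median log2FC was -0.46. FED-CTRL mouse 14 and FED-HFD mouse 11, the lowest of the FED mice, were among the 6 libraries of low correlation, and without those 6 libraries 25 of the 29 genes were lower at that threshold (7.24% of all genes) with a median of -0.84. With the run of animal numbers as a random block the count was 9 of 29 (0.733% of all genes) and the median -0.68. A run is a stretch of consecutive animal numbers, and every run held only CR20 or only FED mice. Differences between runs and maternal nutrition therefore cannot be fully told apart, here and wherever this block is used below. No member had an adjusted p-value under 0.05 in any of these fits.

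Animal numbers fall into 3 ranges whose meaning the labels do not give. The mean level of the 29 genes was lower in CR20 than in FED by 0.24 log2 units among mice numbered under 20 (4 CR20 and 7 FED), by 0.79 among those from 20 to 39 (3 and 2) and by 1.09 among those from 40 (5 and 3). The last value was 0.44 without FED-HFD mouse 40 (5 and 2), where both FED mice left were on CTRL. These values pool the diets, which CR20 and FED mice of a range did not hold in equal shares. In the order of the ranges, CR20 minus FED was -0.13, -0.44 and -0.68 on CTRL alone. On HFD alone it was -0.31, -1.06 and -2.01, the last against mouse 40 only. The direction was the same in each range, and its size was not. Whether these differ by more than the spread between mice was not tested, since the middle range holds 5 mice.

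Some mice were the highest or lowest of their group in all 3 tissues. Mice 15, 40 and 33 were the highest of FED-CTRL, FED-HFD and CR20-CTRL for the mean of the interferon genes in liver, eWAT and pituitary alike, and mice 14, 11 and 7 the lowest of FED-CTRL, FED-HFD and CR20-HFD. Over the 24 mice, the liver level of Gbp2 correlated with its pituitary level at Pearson's r = 0.93 (permutation p = 1e-05, the smallest that 100000 permutations within groups can give) and Spearman's rho = 0.91 (permutation p = 1e-05). Without mice 23 and 40, the farthest from the median, r was 0.88. With the eWAT level of Gbp2, r was 0.64 (permutation p = 0.00217) and rho 0.58 (permutation p = 0.00391). For Gbp3, r was 0.77 with pituitary and 0.70 with eWAT. After Benjamini-Hochberg adjustment over these 4 relations the p-values of r were 4e-05 to 0.00217. Within the ranges of animal numbers, r of Gbp2 between liver and pituitary was 0.93 in the 11 mice under 20 and 0.97 in the 8 mice from 40, and 0.86 in the 5 mice from 20 to 39. Between liver and eWAT it was 0.80 and 0.96 in the outer ranges and -0.89 in the 5 mice of the middle range. For Gbp3 the same 3 values were 0.60, 0.94 and 0.56 with pituitary and 0.88, 0.97 and -0.88 with eWAT, so the relation with eWAT did not hold in the middle range.

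As for the maternal difference in these tissues, 29 of the 29 genes in eWAT and 27 of the 28 tested in pituitary had a log2FC below 0. The median was -0.26 in eWAT, with no member at an unadjusted p-value under 0.05 where 22.5% of all 15964 genes were. In pituitary it was -0.38, with 18 members at that threshold, all lower in CR20. Of all 16657 genes in pituitary, 868 were lower at that threshold, and 12.7% were at it in either direction. The log2FC of Gbp2 was -1.66 in liver, -0.32 in eWAT and -0.71 in pituitary. The difference of liver minus eWAT was -0.97 (limma unadjusted p = 0.0156, adjusted p = 0.42) and that of liver minus pituitary -0.79 (limma unadjusted p = 0.00306, adjusted p = 0.763), so neither passed. Over the list, 8 members had a limma unadjusted p-value under 0.05 for liver minus eWAT (8.97% of all genes), with a median difference of -0.39. For liver minus pituitary 9 had (5.38% of all genes), with a median of -0.27. No member passed adjustment in either.

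**Figure D4:**
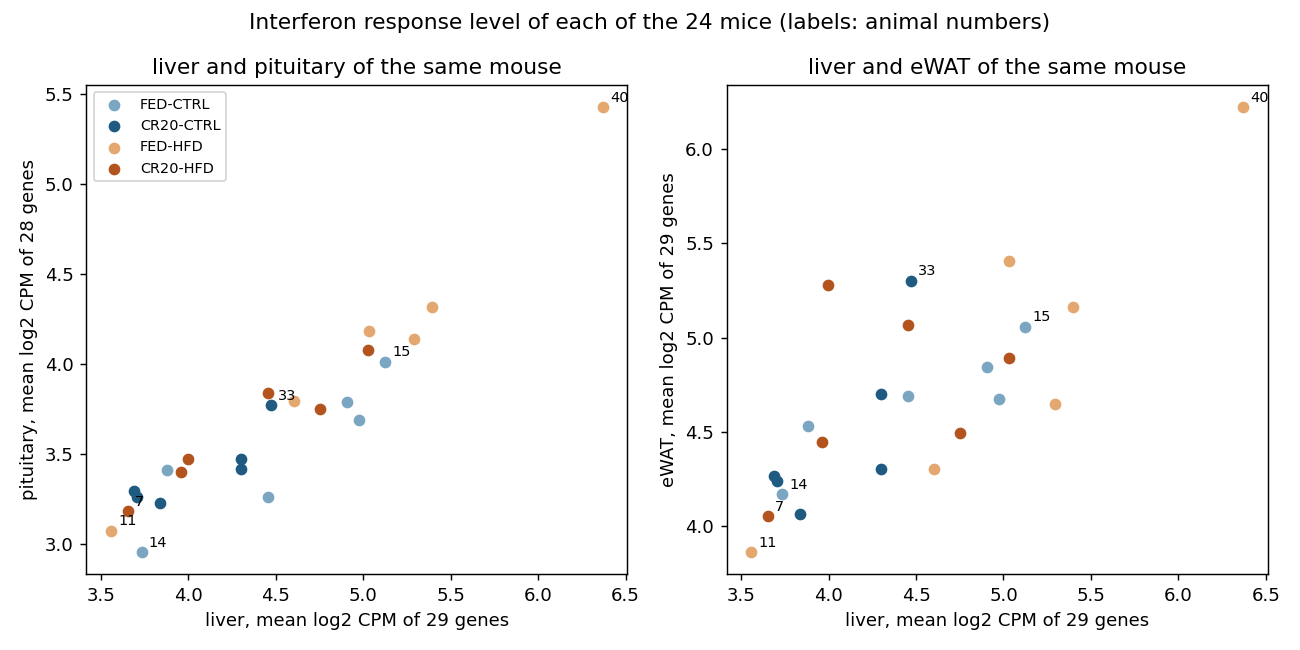
Mean log2 CPM of the interferon-response genes in liver (horizontal axes, 29 genes) against that in pituitary (left, 28 genes) and in eWAT (right, 29 genes) of the same mouse, 1 point per mouse, coloured by group and labelled by animal number for some extreme mice. FED-HFD mouse 40 is highest in each tissue, at 6.37 in liver, 5.43 in pituitary and 6.22 in eWAT.

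Of 26 acute phase genes tested, 18 had a log2FC below 0, and 5 had an unadjusted p-value under 0.05, all lower in CR20 (2.04% of all genes), with a median of -0.17. Beside Lcn2 these were Orm2, an orosomucoid, at -0.43 (SE 0.18), Saa2, a serum amyloid A, at -0.58 (SE 0.27), the haemoglobin-binding Hp at -0.31 (SE 0.14), and Il1rn, the interleukin 1 receptor antagonist, at -0.62 (SE 0.28), the last 3 named after their values were seen. Orm2 and Saa2 share 21.3% and 31.8% of their windows with Orm1 and Saa1. The log2FC of Hp was -0.02 on CTRL and -0.60 on HFD (edgeR unadjusted p = 0.0312, adjusted p = 0.999). Without mouse 40, 1 of the 26 was lower at the unadjusted threshold (1.95% of all genes), and without the 6 libraries 7 were (7.24%). With the run of animal numbers as a random block 1 was (0.733% of all genes).

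Among the leading higher genes, 5 of 12 had a diet effect below 0 at an adjusted p-value under 0.05, where 1.06% of all genes had. The 12 were picked by p-value in the same fit, so all genes are not a like background for them. These 5 are Fabp5, Gm6166, Tcf24, Cib3 and Gm12718. Fabp5, a fatty acid-binding protein, lay at 3.59, 5.10 and 5.74 log2 CPM in FED-CTRL and at 5.46, 5.90 and 6.37 in CR20-CTRL. On HFD it lay at 2.71, 2.96 and 3.58 in FED and at 2.84, 4.13 and 4.70 in CR20. On CTRL the groups overlapped between 5.46 and 5.74, and on HFD between 2.84 and 3.58. Its log2FC was 0.93 (SE 0.21, edgeR adjusted p = 0.675, exact permutation p = 0.000525), and its diet effect, HFD minus CTRL, was -1.94 (adjusted p = 8.37e-06). Gm6166, a processed pseudogene that shares 51.1% of its windows with Fabp5, had a log2FC of 0.84 and is no separate evidence. Tcf24, a basic helix-loop-helix transcription factor, had a log2FC of 1.15 (SE 0.32) and a diet effect of -2.14 (adjusted p = 0.000308). The other members of this kind were Cib3, a calcium and integrin-binding protein, at 1.00 (SE 0.29) with a diet effect of -1.18 (adjusted p = 0.0314), and the noncoding RNA Gm12718, at 1.08 (SE 0.33) with one of -1.29 (adjusted p = 0.0381).

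The rest of the leading higher genes had smaller diet effects. Mcam, an adhesion molecule of vessel walls, had a log2FC of 0.81 (SE 0.25), with 0.49 on CTRL and 1.21 on HFD. Zfp933, a zinc finger protein, had 0.46 (SE 0.13). Gm43379, Gm45001 and Gm12500, transcripts without a known product, had 0.80, 0.86 and 1.03. Their counts ran from 2 to 33 reads per library, and the interval of each was wide, as for Gm12500 at 0.43 to 1.64.

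On the lower side, Skida1, which encodes a protein with a SKI/DACH domain, had compact groups. Its values in FED-CTRL were -0.26, 0.29 and 0.53 log2 CPM and in FED-HFD -0.10, 0.33 and 0.66, against -1.07, -0.36 and -0.05 in CR20-CTRL and -0.94, -0.46 and -0.07 in CR20-HFD. On each diet the FED median lay above every CR20 mouse and the CR20 median below every FED mouse, on 5 to 24 reads per library. Its log2FC was -0.83 (SE 0.18, edgeR adjusted p = 0.471), and its exact permutation p-value of 3.05e-05, not adjusted, was the smallest of the named genes. Skida1 was named for its small edgeR p-value in the same mice, so the permutation p-value is no separate evidence. Dhrs7, a short-chain dehydrogenase, had a log2FC of -0.42 (SE 0.11) and Nxpe2 one of -0.45 (SE 0.12). Them7, a thioesterase family member, had -0.75 (SE 0.20) and a diet effect of 1.03 (adjusted p = 0.00556). Rgs12, a regulator of G protein signalling, had -0.57 (SE 0.16).

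Bmp7, a bone morphogenetic protein, had a log2FC of -0.60 (SE 0.18) in liver and of 1.51 in eWAT (adjusted p = 0.0523). The difference of liver minus eWAT in the same mice was -1.58 (limma unadjusted p = 0.00021, adjusted p = 0.228). In eWAT the medians of Bmp7 were 1.26 and 1.69 log2 CPM in FED-CTRL and CR20-CTRL, and 0.61 and 1.40 in FED-HFD and CR20-HFD. Its highest values there were 4.93 in CR20-CTRL (mouse 5) and 2.69 in CR20-HFD (mouse 7). Fabp5 too had opposite signs, with -0.32 in eWAT and a difference of 1.33 (limma unadjusted p = 8.94e-05, adjusted p = 0.205). Lcn2 had 1.80 in eWAT (edgeR unadjusted p = 0.0335, adjusted p = 0.185), against -1.46 in liver. In eWAT its medians were 2.26 in FED-CTRL, 2.79 in CR20-CTRL, 3.49 in FED-HFD and 2.43 in CR20-HFD, so the medians were higher in CR20 on CTRL and lower on HFD. The highest CR20 values were 7.95 for mouse 5 and 5.74 for mouse 7.

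Genes of fatty acid oxidation and PPAR alpha targets leaned below 0 by small amounts. Of 36 tested, 29 had a log2FC below 0, the median was -0.11, and 3 had an unadjusted p-value under 0.05, all lower (2.04% of all genes). Acadvl, which opens the mitochondrial oxidation of very long chains, had medians of 7.80 and 7.79 log2 CPM in FED-CTRL and FED-HFD against 7.65 and 7.62 in the CR20 groups, a log2FC of -0.23 (SE 0.10). Acot4, a peroxisomal thioesterase, had -0.46 (SE 0.20) and Acadm, the medium-chain dehydrogenase, named after its value was seen, -0.17 (SE 0.08). Without the 6 libraries all 36 were below 0 and 12 had an unadjusted p-value under 0.05, where 7.24% of all genes were lower, and the median was -0.20. With the run of animal numbers as a random block 29 were below 0 and 1 was lower at that threshold (0.733% of all genes). No member passed adjustment in the fit of all 24 livers.

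Of 26 genes of cholesterol synthesis and uptake tested, 17 had a log2FC below 0 with a median of -0.15. An unadjusted p-value under 0.05 was seen for 2, both lower (2.04% of all genes). Msmo1, a sterol methyl oxidase, had medians of 7.74 and 7.67 log2 CPM in the FED groups on CTRL and HFD against 7.17 and 7.29 in the CR20 groups, a log2FC of -0.47 (SE 0.17). Mvk, mevalonate kinase, had -0.32 (SE 0.15). With voom and quality weights 11 of the 26 were lower at the unadjusted threshold (7.88% of all genes), without the 6 libraries 4 were (7.24%), and with the run of animal numbers as a random block 1 was (0.733%).

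No gene of de novo lipogenesis passed for maternal nutrition, and many passed for diet. Of 29 genes tested, 15 had a log2FC above 0 (58.7% of all genes) and 14 below, with a median of 0.01. At an adjusted p-value under 0.05, 16 were lower in HFD than in CTRL (1.06% of all genes) and none higher. Insig2, which retains the SREBP proteins in the endoplasmic reticulum, had the only unadjusted p-value under 0.05 for maternal nutrition (3.98% of all genes). Its log2FC was 0.49 (SE 0.22), and its value without the 6 libraries was -0.021. Fads2, a fatty acid desaturase, had -0.25 (SE 0.12). Scd1, the stearoyl-CoA desaturase, had a log2FC of -0.08 (SE 0.36, 95% interval -0.83 to 0.67), made of 0.65 on CTRL and -0.81 on HFD (unadjusted p = 0.0369 for that difference, adjusted p = 0.999, edgeR). Its medians were 12.56 and 13.44 log2 CPM in FED-CTRL and CR20-CTRL against 8.45 and 7.87 on HFD, a diet effect of -4.66 (adjusted p = 3.59e-07).

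Of 26 genes of glucose metabolism and insulin signalling tested, 15 had a log2FC above 0 (58.7% of all genes) and none an unadjusted p-value under 0.05. Gys2, the liver glycogen synthase, had -0.34 (95% interval -0.69 to 0.01), and Slc2a2, the glucose transporter of hepatocytes, had -0.18 (-0.40 to 0.03). Slc2a4, the insulin-regulated transporter, had -0.45 (-1.15 to 0.26), and it was 0.011 with voom and quality weights. The intervals of 23 of the 26 lay within -1 and 1.

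**Figure D5:**
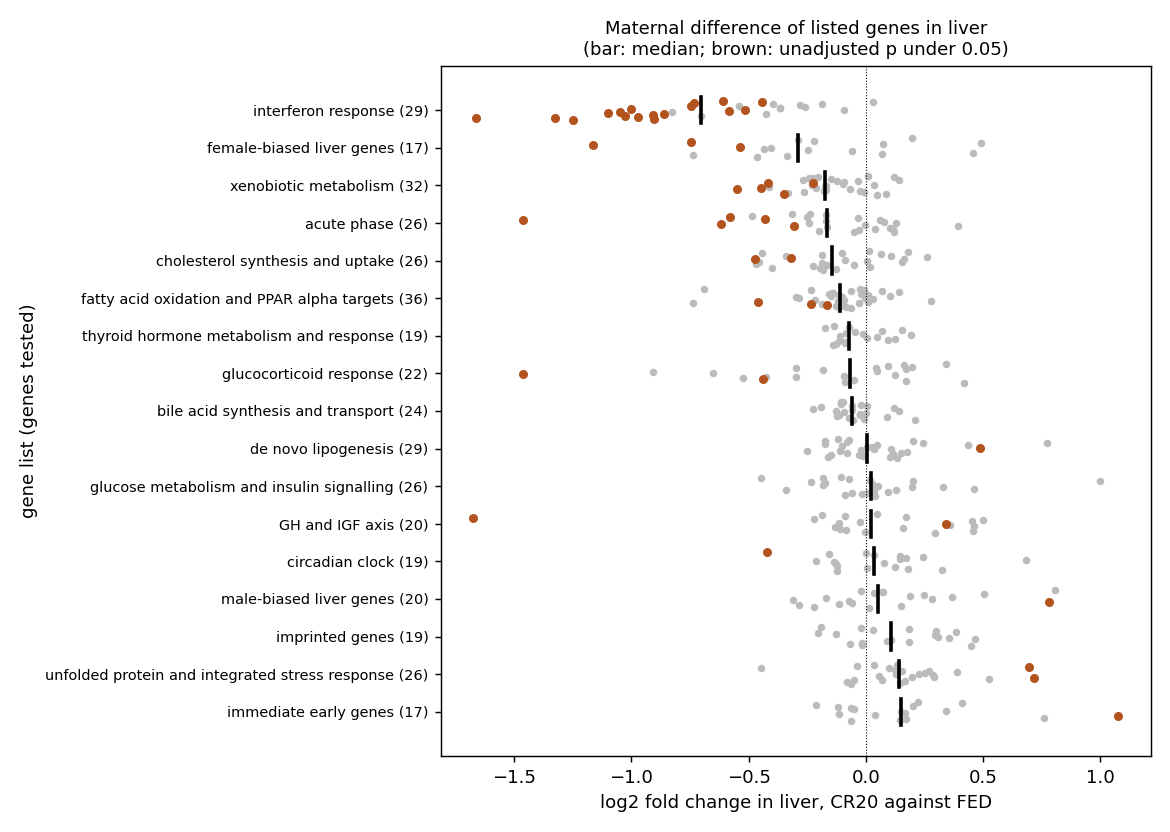
Log2FC of CR20 minus FED (log2 scale) for the tested members of each gene list, 1 point per gene, with a bar at the median and brown points where the unadjusted p-value is under 0.05. Of the 17 lists the interferon list has the lowest median, -0.70, and the other medians lie between -0.29 and 0.15.

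Enzymes that handle foreign compounds leaned lower. Of 32 tested, 26 had a log2FC below 0, with a median of -0.17, and 5 had an unadjusted p-value under 0.05, all lower (2.04% of all genes). They were Aldh1a1, already given, Cyp2a5 at -0.55 (SE 0.21) and, named after their values were seen, Cyp3a59 at -0.42 (SE 0.16), Cyp3a25 at -0.23 (SE 0.10) and Cyp2c38 at -0.45 (SE 0.21). Cyp2a5, which hydroxylates coumarin, shares 30.7% of its windows with Cyp2a4. The interval of each of the 32 genes lay within -1 and 1. With voom and quality weights 14 were lower at the unadjusted threshold (7.88% of all genes), without the 6 libraries 10 were (7.24%), and with the run of animal numbers as a random block 2 were (0.733%). In the same fit HFD raised 9 of the 32 and lowered 2 at an adjusted p-value under 0.05. Of all genes, 1.72% passed for diet in either direction and 1.06% were lower in HFD.

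Among liver genes with higher expression in females, 12 of 17 tested had a log2FC below 0, and the median was -0.29. An unadjusted p-value under 0.05 was seen for 3, all lower (2.04% of all genes). Ntrk2, a neurotrophin receptor, had medians of 5.58 and 5.33 log2 CPM in FED-CTRL and CR20-CTRL and of 4.40 and 2.79 in FED-HFD and CR20-HFD. Its log2FC was -0.74 (SE 0.23), made of -0.22 on CTRL and -1.29 on HFD (edgeR unadjusted p = 0.0133, adjusted p = 0.999), beside a diet effect of -1.68 (adjusted p = 9.48e-05). Fmo2, a flavin monooxygenase, named after its value was seen, had -0.54 (SE 0.24). Of the 20 male-biased genes tested, 12 were above 0 (58.7% of all genes) with a median of 0.05. The elongase Elovl3 had the only unadjusted p-value under 0.05 of these (3.98% of all genes), at 0.78 (SE 0.30). Cyp2d9, a male-specific steroid hydroxylase, had -0.22 (SE 0.11).

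Growth hormone and insulin-like growth factor genes were evenly split, with 10 of 20 above 0 and a median of 0.02. Beside Socs1, Igfbp3 had the only other unadjusted p-value under 0.05 of the 20 (3.98% of all genes), at 0.34 (SE 0.15). Its medians were 4.68 and 4.50 log2 CPM in the FED groups on CTRL and HFD against 4.89 and 4.77 in the CR20 groups. Igfbp2 had 0.36 (95% interval -0.09 to 0.81), and the leptin receptor Lepr had 0.45 (-0.02 to 0.93) on 10 to 46 reads per library.

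No thyroid gene of 19 tested had an unadjusted p-value under 0.05, and 12 were below 0 with a median of -0.07. The hormone receptors Thrb and Thra had -0.17 (95% interval -0.42 to 0.08) and 0.16 (-0.16 to 0.47), their partner Rxra -0.11 (-0.33 to 0.11), and the carrier Ttr -0.13 (-0.35 to 0.08). The intervals of all 19 lay within -1 and 1. In the same way 0 of 24 bile acid genes had an unadjusted p-value under 0.05, with a median of -0.06. The bile salt export pump Abcb11 had 0.21 (SE 0.10) and the sterol hydroxylase Cyp8b1 had -0.22 (SE 0.18).

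Of 19 clock genes, 12 were above 0 (58.7% of all genes) with a median of 0.03. Usp2, a ubiquitin protease, had the only unadjusted p-value under 0.05 of the list (3.98% of all genes), at -0.42 (SE 0.14). Nr1d1, the REV-ERB alpha repressor, had 0.68 with a wide interval (-0.17 to 1.54) and ranged from 2.76 to 6.12 log2 CPM within FED-CTRL alone. Of 22 glucocorticoid targets, 12 were below 0 with a median of -0.07, and 2 had an unadjusted p-value under 0.05, both lower (2.04% of all genes). They were Lcn2, which this list also holds, and Fkbp5, a chaperone of the glucocorticoid receptor, at -0.44 (SE 0.20). The medians of Fkbp5 were 5.39 and 4.85 log2 CPM in FED-CTRL and FED-HFD against 4.80 and 4.89 in the CR20 groups.

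Genes of the unfolded protein and integrated stress response leaned above 0. Of 26 tested, 21 had a log2FC above 0 (58.7% of all genes), with a median of 0.14 (0.04 on CTRL and 0.24 on HFD). An unadjusted p-value under 0.05 was seen for 2, both higher (1.94% of all genes). Ddit3, which encodes the transcription factor CHOP, lay at 3.18, 3.31 and 3.60 log2 CPM in FED-CTRL and at 2.75, 4.03 and 4.14 in CR20-CTRL. On HFD it lay at 2.84, 3.61 and 3.97 in FED and 3.14, 4.27 and 5.33 in CR20. The medians were higher in CR20 on both diets and the ranges overlapped. Its log2FC was 0.72 (SE 0.23, edgeR adjusted p = 0.999, exact permutation p = 0.0337). Sdf2l1, a chaperone of the endoplasmic reticulum, had 0.70 (SE 0.30).

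Immediate early genes follow handling and other acute stimuli within minutes, and 11 of 17 were above 0 (58.7% of all genes). Their median was 0.15, with -0.09 on CTRL and 0.39 on HFD. Fos had a log2FC of 1.08 (SE 0.38, exact permutation p = 0.084), and its highest mouse, at 3.45 log2 CPM, was in CR20-HFD. Fos had the only unadjusted p-value under 0.05 of the list (3.98% of all genes), and Egr1 had 0.76 (95% interval -0.26 to 1.78).

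Of 19 imprinted genes tested, 12 were above 0 (58.7% of all genes), the median was 0.11, and none had an unadjusted p-value under 0.05. Peg3, a paternally expressed zinc finger gene, had medians of 4.32 and 4.69 log2 CPM in FED-CTRL and FED-HFD against 4.65 and 5.26 in the CR20 groups, and a log2FC of 0.39 (95% interval -0.33 to 1.10). Mest, which encodes a hydrolase-like protein, had 0.31 (-0.15 to 0.77), Impact, a regulator of translation, 0.11 (-0.09 to 0.31) and the noncoding RNA Kcnq1ot1 0.47 (-0.22 to 1.15). Kcnq1ot1 lies antisense to Kcnq1, and since the strand setting of the counting is not stated, their reads may not be told apart. The lowest values of Peg3 in FED-CTRL, FED-HFD and CR20-CTRL, 2.32, 2.51 and 1.89, were from mice 14, 11 and 5, all among the 6 libraries of low correlation.

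The random block lowered the counts of other lists too. With it, 1 gene each of the female-biased and glucocorticoid lists was lower at the unadjusted threshold (0.733% of all genes), 1 of the unfolded protein list was higher (0.529%), and no immediate early or imprinted gene was at that threshold. With voom and quality weights 4 unfolded protein genes and 5 imprinted genes were higher (9.71% of all genes) and 1 imprinted gene lower (7.88%).

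Across tissues, the same fit called 212 genes (1.33%) in eWAT, 117 higher and 95 lower in CR20, and 0 in pituitary, where the smallest adjusted p-value was 0.102. A direct test within mice of liver minus eWAT called 0 of 12801 genes, with 1148 (8.97%) at an unadjusted p-value under 0.05 by limma. Liver minus pituitary gave 678 of 12595 genes (5.38%) at the unadjusted threshold and 1 (0.00794%) at an adjusted p-value under 0.05. That gene was Arhgap9, a GTPase-activating protein of blood cells, with a difference of 0.93 (95% interval 0.63 to 1.24, adjusted p = 0.0188), made of 0.36 in liver and -0.61 in pituitary, and it was not called when the pairing by mouse was left out.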

How the data were processed

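RNA of liver, eWAT and pituitary from 24 male mice was sequenced. The authors trimmed reads with Trimmomatic, aligned them to GRCm39 with STAR, counted reads per gene with Subread featureCounts and deposited raw counts for 72 libraries without normalization. The library kit is given as stranded total RNA in the labels and also as stranded mRNA in the methods, and the strand setting of the counting is not stated, so reads of overlapping or antisense genes may not be told apart. Groups came from the labels, and gene names and positions from GENCODE M39 by Ensembl identifier.

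Each tissue's counts were tested with edgeR 4.0.16 in R 4.3.3 (filterByExpr over the 4 groups, TMM, estimateDisp, glmQLFit and glmQLFTest with default values), with maternal nutrition and offspring diet as terms, two-sided, with Benjamini-Hochberg adjustment over all genes tested. Log2 CPM used TMM factors and a prior count of 2. The exact permutation test, two-sided, took all 853776 regroupings of mice within diets. Its p-values are not adjusted, and the genes they are printed for were picked by edgeR p-value in the same mice. Liver was compared with each other tissue by limma 3.58.1 on differences of log2 CPM within mice. Alternatives included limma voom with quality weights, DESeq2 1.42.0, other filters, covariates and blocks, and leaving out each mouse. The members, gene lists and tests were chosen with earlier results of these data known. The genes named are the 12 of smallest p-value in each direction, the 2 of smallest p-value of each list (4 for the imprinted, growth hormone and thyroid lists), Scd1 and Slc2a4, and others where said. A few genes are not reported here, though lists count them. The fits were tested on simulated data. Depths of 9842813 to 19928212 counts put 3 counts at 0.151 to 0.305 CPM. Promoter sequences are from RefSeq (GRCm38.p6), another build than that of the counts, and were matched by symbol.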

Additional observations from a re-analysis of the deposited data

Results flagged for a closer look

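Among 248 groups of 6 mice, for the named genes in liver, 15 (6.05%) held a mouse far from the other 5 by Dixon's ratio, where chance alone marks about 1 in 20 groups, or 12.4 here. FED-HFD mouse 10 stood out for 3 genes, high for Fads2 at 10.4 log2 CPM and low for Aldh1a1 at 10.7 and Cyp2a5 at 9.55. FED-HFD mouse 11 stood out low for 3 genes, with Nxpe2 at 3.13, Egr1 at -0.80 and Peg3 at 2.51 log2 CPM. FED-CTRL mouse 24 was high for 2 genes of sterol metabolism, Insig2 at 7.18 and Mvk at 5.44. CR20-HFD mouse 7 was high for Bmp7 at 0.68 and Impact at 4.39. Single genes stood out in 5 further mice, with Gm12500 low at -1.81 in CR20-CTRL mouse 5, Gbp10 high at 5.30 in CR20-CTRL mouse 33, Thra high at 3.66 in FED-HFD mouse 13, Kcnq1ot1 low at -1.30 in FED-CTRL mouse 14 and Mest low at -0.94 log2 CPM in CR20-HFD mouse 32. Mice 5, 11, 14 and 32 are among the 6 libraries of low correlation, and their part in these values was not tested.

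The log2FC of Arhgap9 in liver minus that in pituitary of the same mice was 0.93 (limma adjusted p = 0.0188), a call that was lost without the pairing by mouse. It was 0.36 (SE 0.15) in liver, -0.61 in pituitary and -0.85 in eWAT by edgeR, so its sign in liver was opposite to that in both other tissues and its size smaller.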

How the results depend on the processing

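Over 38 alternative settings, the count of liver genes at an adjusted p-value under 0.05 was 0 except for voom with quality weights (3), DESeq2 (1) and the fit without the 6 libraries of low correlation (1), and leaving out each mouse in turn gave 0 each time. At the thresholds of the methods, voom with quality weights gave 2, DESeq2 2 and the fit without the 6 libraries 1. The genes at an unadjusted p-value under 0.05, 549 in the report, numbered 2425 with quality weights, 861 by DESeq2, 1686 with no filter, 174 with the run of animal numbers as a random block (consensus correlation 0.166), 1908 without CR20-CTRL mice 4 and 5, 2160 without the 6 libraries and 1418 with the first principal component as a covariate, and 440 to 763 with 1 mouse left out. The fits without libraries of low correlation and with the principal component were added after seeing the data. The interferon genes lower at that threshold, 17 in the report, numbered 9 with that random block and 12 to 21 with 1 mouse left out (12 without FED-HFD mouse 40), and their median ran from -0.81 to -0.46. For eWAT, voom with quality weights called 1754 genes against 212.

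Of 62 named genes, Slc2a4 was 0.011 with quality weights, Insig2 was -0.021 without the 6 libraries, and Scd1, at -0.08 in the report, was 0.59 with no diet term, 0.021 with a term for the ranges of animal numbers, 0.21 without FED-HFD mouse 10, 0.043 without CR20-HFD mouse 7 and 0.046 without CR20-HFD mouse 32 (range -0.19 to 0.21 with 1 mouse left out). Adgrf1, Styx, Aldh1a1 and Lcn2 passed in the settings given in the report. All other values kept their direction and their side of the threshold. The causes of these differences were not tested.

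The 4 liver groups hold different mice, so no paired analysis within liver was possible. Liver and the other tissues share mice, and the replicate block of liver minus pituitary gave 1 call, against 0 without the replicate block. Small counts limit the precision for genes near 1 CPM, and litters were not known.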

Other observations

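No further list held a gene that passed adjustment. Of 13 mitochondrially encoded genes listed 10 were tested, all 10 had a log2FC below 0 with a median of -0.18, and none had an unadjusted p-value under 0.05. The share of counts on all genes of the mitochondrial chromosome, listed or not, ranged from 1.56% to 8.03% in CR20-CTRL alone. Of 31 genes of amino acid metabolism and the urea cycle, 17 were above 0 with a median of 0.03, and the 95% interval of all 31 lay within -1 and 1. Of 21 antioxidant genes and NRF2 targets 16 were below 0 with a median of -0.09 and 1 unadjusted p-value under 0.05. Of 17 enzymes of DNA and histone methylation 13 were above 0 with a median of 0.12 and none at that threshold. Heat shock genes had 12 of 16 above 0, with a median of 0.07, and cell cycle genes 10 of 20, with a median of 0.02. Apolipoproteins and lipoprotein genes had 13 of 25 above 0 with a median of 0.01, and hepatokines 10 of 22 with a median of -0.03. Over all genes tested in liver, 58.7% were above 0 and 3.98% had an unadjusted p-value under 0.05.

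Neutrophil and monocyte markers summed to 8.31 to 34.6 CPM over the 24 livers, and 5 of the 6 tested (of 10 listed) had a log2FC below 0, with medians of 0.06 on CTRL and -0.74 on HFD. The highest summed levels were 22.2 CPM in FED-CTRL, 34.6 in FED-HFD, 31.2 in CR20-CTRL and 25.0 in CR20-HFD. Their part in the values of Lcn2 and the interferon genes was not tested.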
